A study of Mus musculus with 12 samples.

Results

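The genes described here are the 42 nuclear genes that encode the subunits of respiratory complexes II, III and IV and of ATP synthase (complex V), with cytochrome c. The rule is a list of gene names, and its members are 4 genes of complex II, 9 of complex III, 1 of cytochrome c, 13 of complex IV and 15 of ATP synthase, out of 55401 gene IDs in each count table. The data came from adult mouse hearts of 2 genotypes, wild type (WT) and Rpl3l-/- (here KO, the loss of both copies of Rpl3l), each measured as Input (RNA from the whole heart homogenate) and as IP (RNA pulled down with ribosomes through an anti-HA antibody), with 3 libraries in each of the 4 groups, 12 in all. Rpl3l encodes a protein of the large ribosomal subunit that is made mainly in heart and skeletal muscle, and Rpl3 is its widely expressed paralog. All libraries were poly(A)-selected and sequenced as nanopore cDNA. Hearts for the IP received cycloheximide, which arrests ribosomes on their mRNA, and the buffer for their homogenisation held a detergent and heparin, and IP RNA was purified with an RNeasy kit while Input RNA was extracted with TRIzol. Fraction and purification therefore changed together and cannot be told apart. The labels name no age beyond adult, no strain and no promoter or cell type for the HA tag, and do not name which libraries, if any, share a heart. The series text calls the 3 libraries of a group biological triplicates, and every p-value measures the spread between these libraries.

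The respiratory chain sits in the inner mitochondrial membrane and drives most of the ATP supply of the beating heart. Complex II passes electrons from succinate to ubiquinone, complex III passes them on to cytochrome c, complex IV hands them to oxygen, and ATP synthase uses the proton gradient that the pumping complexes build. Complexes III, IV and V combine nuclear-encoded subunits with a few encoded by mitochondrial DNA. Several small subunits of complex IV exist as a heart and muscle form and a widespread form, so the balance between paralogs differs between tissues.

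Library totals ran from 169359 counts (KO Input library 3) to 710868, of which the 42 genes made up 8.07% to 11.3%. Levels below are CPM, that is counts scaled to a common library size with TMM factors, 3 counts stand for 4.22 to 17.7 CPM depending on the library, and all 42 genes passed the count filter among 6596 genes tested. Rpl3l, the check of the genotype labels, was lower in KO by a log2 ratio of -2.46 ± 0.27 (SE, adjusted p = 1.77e-05) in Input and -5.84 ± 0.33 (SE, adjusted p = 9.27e-12) in IP, and Rpl3 was higher by 0.95 ± 0.17 (SE, adjusted p = 0.0102) and 1.35 ± 0.18 (SE, adjusted p = 1.71e-04) (edgeR quasi-likelihood test). The tissue label was checked on 8 cardiomyocyte genes, whose summed level lay between 50446 and 60516 CPM over the 12 libraries. Of these, 7 were tested, and Actc1 was at 0 counts throughout. The single genes were not even between fractions. In WT, Mybpc3 was higher in IP by a log2 ratio of 1.14 (edgeR, adjusted p = 3.15e-05) and Myh6 lower at -0.54 (adjusted p = 0.0479). In KO, Tnnt2 (0.64), Mybpc3 (0.58) and Ryr2 (0.55) were called higher in IP and 0 were called lower. The sum of 6 adipocyte genes was 1047 to 1614 CPM in IP and 1605 to 2815 CPM in Input, ranges that overlap. Fabp4 made up most of that sum, at 1014 to 1605 CPM in IP and 1489 to 2637 CPM in Input. Of the 2 adipocyte genes tested, Cfd was lower in IP in both genotypes and Fabp4 in KO only. Adipoq, not tested, stood at 0 to 7.04 CPM in IP and 5.68 to 111 CPM in Input. The sum of 4 brown fat genes was 72.3 to 135 CPM in IP and 39.8 to 312 CPM in Input, where Elovl3 was at 0 throughout and Ucp1 at 0 to 3.43 CPM in IP and 4.93 to 151 CPM in Input. Of the 3 brown fat genes tested, Ucp1 was lower and Ppargc1b, a coactivator, higher in IP in both genotypes. Endothelial genes, 6 in all, summed to 517 to 698 CPM in IP and 723 to 892 CPM in Input without sharing a direction, with Egfl7 lower and Vwf higher in both genotypes and Cdh5 lower in KO. Of 7 fibroblast genes tested, Col3a1 and Postn were lower in IP in KO and none was called in WT. Of 3 skeletal muscle genes tested, Myl1 was lower in IP in KO. Globin genes took up to 17.3% of a library's counts. In bulk tissue fewer cells of a type and less RNA per cell cannot be told apart, and the part of either in the results below was not tested.

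No subunit gene passed the threshold (adjusted p under 0.05) between KO and WT, in Input or in IP, while 16 of the 42 in WT and 17 of the 42 in KO differed between IP and Input, nearly all of them lower in IP. In WT 15 were lower and 1 higher in IP, against a background of 8.67% of all genes tested lower and 5.37% higher. In KO 16 were lower and 1 higher, against 9.78% and 6.64%. The median log2 fold change of the 42 genes was -0.33 in WT and -0.31 in KO, beside 0.02 and 0.0069 for all genes tested. Most of these genes have short mRNAs, and the tested genes under 600 bases, 146 in all, had medians of -0.51 in WT and -0.79 in KO. The trend of the level with transcript length was then fitted in each library and removed. The members' median became 0.06 in WT and 0.10 in KO. The calls became 5 lower with 8 higher in WT and 7 lower with 9 higher in KO. The shares and medians of all genes given above are from before this removal, so they are no background for these counts. No share or median over all genes is given for values without the trend, here or by complex and list below. Those counts are therefore not read as many or few. Leaving out 1 library moved the number lower in WT from 15 to 8 without WT IP library 1 or WT Input library 1 and to 9 without WT IP library 3, and in KO from 16 to 12 without KO Input library 1 and to 21 without KO Input library 3. With raw library totals as the scale, the all-gene median lay at 0.11 in WT and 0.15 in KO. Under that scale Sdhb (-0.40), Cox8b (-0.47), Atp5g1 (-0.43) and Atp5k (-0.43) were no longer called in WT, nor Cycs (-0.41) in KO. Calls that held under all 18 alternative analyses were those of Atp5o, Atp5e, Cox7a2 and Cox8a in WT and of Atp5o, Atp5e, Cox7a2, Cyc1, Uqcrq and Sdha in KO. Values after removal of the length trend are given below for most called members, and the calls of Cox5a in WT and of Cox7c and Ndufa4 in both genotypes did not hold there.

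**Figure D1:**
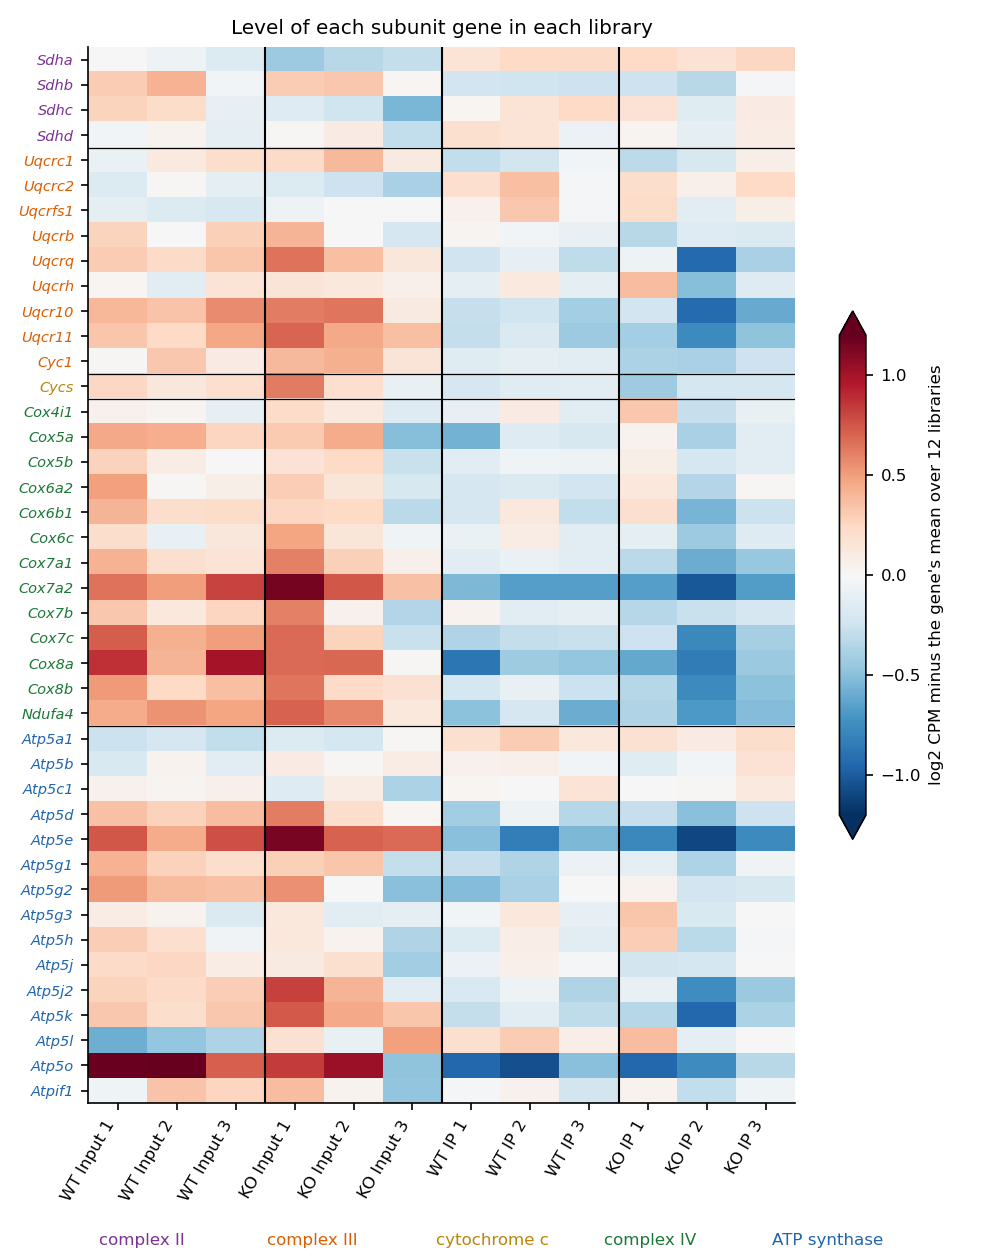
Heat map of the 42 genes (rows, grouped and coloured by complex) in the 12 libraries (columns, grouped by genotype and fraction), as log2 CPM minus the gene's mean over all libraries. The small subunits Cox7a2, Cox8a, Atp5e, Uqcr10 and Uqcr11 are high in Input and low in IP, and Atp5l in WT and Sdha in KO run the other way.

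KO Input library 3 was the lowest of the 6 Input libraries for 28 of the 42 genes and KO Input library 1 was the highest for 19. In IP, KO IP library 2 was the lowest of 6 for 29 genes. KO Input library 3 was also the smallest of all, and leaving it out moved the median for IP against Input in KO from -0.31 to -0.46, while leaving out KO Input library 1 moved it to -0.19.

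Per kilobase of the longest annotated transcript, the highest level in WT Input belonged to Ndufa4 at 8583 ± 274 CPM per kilobase (SD, n = 3), followed by Cox8b at 8186 ± 756 and Atp5g3 at 7888 ± 738. These neighbours overlap within their spread. The order depended on the division by length, and whether these nanopore counts call for it was not tested. In CPM alone the highest in WT Input were Atp5b at 6623 ± 542, Atp5g3 at 5703 ± 534 and Cox6c at 5331 ± 562 (SD, n = 3). The lowest per kilobase were the complex II genes Sdhc at 234 ± 30.6 CPM per kilobase, Sdha at 391 ± 20.7 and Sdhd at 549 ± 30.3. The gap between Sdhc and Sdha exceeds their spread, while Sdhd overlaps Cycs at 560 ± 21.8. Sdhb, also of complex II, stood well above them at 1576 ± 243 CPM per kilobase. In CPM alone the lowest in WT Input were Atpif1 at 462 ± 64.9 and Atp5g2 at 566 ± 34.6. Levels per length, and values with the length trend removed, are uncertain for Atp5g1, Cycs and Sdhc, whose longest annotated transcripts of 4715, 3123 and 3171 bases may not be the expressed ones.

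Complex II is the only complex of the set built wholly from nuclear genes, and its 4 genes did not share a direction. Sdha (ENSMUSG00000021577.14, chr13:74322254-74350280 on the minus strand of GRCm38), the flavoprotein subunit that oxidises succinate, measured 1186, 1144 and 1068 CPM in WT Input and 1339.7, 1408 and 1396 CPM in WT IP. In KO it measured 879.7, 948 and 977 CPM in Input and 1407, 1342 and 1414 CPM in IP. Every IP library was above every Input library in both genotypes, and the log2 fold change (IP over Input) was 0.29 ± 0.14 (SE, adjusted p = 0.183) in WT and 0.57 ± 0.14 (SE, adjusted p = 0.00672) in KO. Sdha kept its call in KO under all 18 alternatives, with the length trend removed at 0.54 (adjusted p = 0.00473). Sdhb, the iron-sulfur subunit beside it, went the other way with 1879, 2029.5 and 1491 CPM in WT Input and 1295, 1288 and 1280.1 CPM in WT IP. Its log2 fold change was -0.48 ± 0.16 (SE, adjusted p = 0.0393) in WT and -0.42 ± 0.16 (SE, adjusted p = 0.0717) in KO, and the WT value without the length trend was -0.13 (adjusted p = 0.593). The WT call of Sdhb ended without WT IP library 1, 2 or 3 or WT Input library 1 or 2 (adjusted p between 0.105 and 0.179). The membrane anchors did not pass, with Sdhc at 0.0037 and 0.34 and Sdhd at 0.13 and 0.05 in WT and KO. Without the length trend Sdhd was called higher in WT at 0.45 (adjusted p = 0.0232).

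Between genotypes, Sdha and Sdhc gave non-overlapping Input libraries with lower values in KO. Sdhc measured 810.1, 787 and 631 CPM in WT Input and 605, 570.1 and 460.3 CPM in KO Input, a log2 ratio of -0.44 ± 0.16 (SE, adjusted p = 0.526). For Sdha the same comparison gave -0.28 ± 0.14 (SE, adjusted p = 0.721). In IP the KO over WT values were -0.10 for Sdhc and 0.01 for Sdha. None of the 4 passed in either fraction.

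In complex III, 2 of 9 genes in WT and 4 of 9 in KO were lower in IP and none was higher. The lower ones were small supernumerary subunits and, in KO, cytochrome c1. Uqcr10 measured 1620.2, 1561 and 1824 CPM in WT Input and 1018, 1045 and 929.7 CPM in WT IP. In KO its levels were 1881, 1918 and 1329.7 CPM in Input and 1048, 650.2 and 809 CPM in IP. Input and IP libraries did not overlap in either genotype, and the log2 fold change was -0.74 ± 0.18 (SE, adjusted p = 0.00495) in WT and -1.04 ± 0.18 (SE, adjusted p = 1.89e-04) in KO. Uqcr11 had 2842, 2663 and 3117 CPM in WT Input, 1852, 2011 and 1673 CPM in WT IP, 3667, 3101 and 2909 CPM in KO Input and 1704, 1333 and 1617 CPM in KO IP. Its IP libraries were all below its Input libraries, at a log2 ratio of -0.64 ± 0.16 (SE, adjusted p = 0.00796) in WT and -1.06 ± 0.16 (SE, adjusted p = 4.99e-05) in KO. Both calls ended in both genotypes when the length trend was removed, at -0.17 (adjusted p = 0.447) and -0.35 (adjusted p = 0.0874) for Uqcr10 and -0.06 (adjusted p = 0.811) and -0.37 (adjusted p = 0.0658) for Uqcr11. Their longest transcripts have 434 and 445 bases. Without WT IP library 3, the WT call of Uqcr11 ended (adjusted p = 0.0557).

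Cyc1 (ENSMUSG00000022551.8, chr15:76343523-76346260 on the plus strand of GRCm38), the cytochrome c1 that reduces cytochrome c, measured 1615, 1660.2 and 1375 CPM in KO Input and 949.8, 941 and 1040.5 CPM in KO IP, with no overlap and a log2 ratio of -0.67 ± 0.15 (SE, adjusted p = 0.00262). In WT it measured 1246, 1544 and 1317 CPM in Input and 1112, 1139 and 1127 CPM in IP, a log2 ratio of -0.28 ± 0.15 (SE, adjusted p = 0.214). Uqcrq, a small subunit, measured 4292, 3517 and 3017 CPM in KO Input and 2623, 1439 and 2091 CPM in KO IP, also without overlap, and had a log2 ratio (IP over Input) of -0.82 ± 0.19 (SE, adjusted p = 0.00361) in KO and -0.50 ± 0.19 (SE, adjusted p = 0.0773) in WT. Both KO calls held under all 18 alternatives, with -0.45 (adjusted p = 0.0201) for Cyc1 and -0.62 (adjusted p = 0.0103) for Uqcrq after the length trend was removed. The genes of the Rieske protein and the core proteins were not called. Uqcrfs1, the Rieske iron-sulfur protein, had 1799.7, 1739 and 1706 CPM in WT Input and 2024, 2439.6 and 1928 CPM in WT IP, with a log2 ratio of 0.28 ± 0.15 (SE, adjusted p = 0.23) in WT and 0.08 ± 0.15 (SE, adjusted p = 0.79) in KO. The core protein gene Uqcrc2 gave 0.27 ± 0.15 (SE, adjusted p = 0.24) and 0.43 ± 0.15 (SE, adjusted p = 0.0528), and the other core gene Uqcrc1 gave -0.27 and -0.39, none of them called. Without the length trend Uqcrfs1 was called higher in WT at 0.55 (adjusted p = 0.00712), Uqcrc2 in KO at 0.53 (adjusted p = 0.00845), and the hinge protein gene Uqcrh in both at 0.53 (adjusted p = 0.0193) and 0.47 (adjusted p = 0.0371). Uqcrb stood at -0.22 and -0.31 and was not called.

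Cytochrome c itself, the soluble carrier between complexes III and IV encoded by Cycs, measured 1812, 1677 and 1757 CPM in WT Input and 1323, 1381 and 1396 CPM in WT IP. In KO the values were 2353, 1760.3 and 1432 CPM in Input and 1139, 1316 and 1319.7 CPM in IP. The libraries of the fractions did not overlap in either genotype. The log2 fold change was -0.36 ± 0.16 (SE, adjusted p = 0.156) in WT and -0.56 ± 0.17 (SE, adjusted p = 0.0212) in KO, and the KO call held with the length trend removed at -0.60 (adjusted p = 0.00835), a value that rests on the 3123-base transcript, and was made in 11 of 18 alternatives. Cycs lost its KO call without KO IP library 1 or 3 or KO Input library 1 (adjusted p between 0.0537 and 0.2).

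In complex IV all 13 genes were below 0 in both genotypes before the length trend was removed. After its removal the median of the complex was 0.12 in WT, with 2 genes called higher and 2 lower, and 0.04 in KO, with 2 higher and 1 lower. Before the removal, 6 of the 13 passed in WT and 6 in KO, all lower in IP. The 5 shared between genotypes were Cox7a2, Cox7c, Cox8a, Cox8b and Ndufa4, with Cox5a added in WT and Cox7a1 in KO. Cox7a2 (ENSMUSG00000032330.7, chr9:79755361-79759878 on the minus strand of GRCm38), the widespread form of subunit VIIa, measured 2081, 1879 and 2338 CPM in WT Input and 913, 839 and 842 CPM in WT IP. In KO it measured 2944, 2234 and 1699 CPM in Input and 842, 655 and 834 CPM in IP. Every IP library was below every Input library by a wide margin, and the log2 fold change was -1.28 ± 0.18 (SE, adjusted p = 1.37e-05) in WT and -1.57 ± 0.18 (SE, adjusted p = 8.41e-07) in KO. Cox8a (ENSMUSG00000035885.5, chr19:7215153-7217616 on the minus strand of GRCm38), the widespread form of subunit VIII, measured 783, 567 and 849.8 CPM in WT Input, 234, 317 and 309.9 CPM in WT IP, 682, 686 and 432 CPM in KO Input and 278, 238 and 312 CPM in KO IP. Again no libraries of the fractions overlapped, with -1.35 ± 0.19 (SE, adjusted p = 1.66e-05) in WT and -1.14 ± 0.20 (SE, adjusted p = 2.35e-04) in KO. With the length trend removed Cox7a2 stayed lower at -0.71 (adjusted p = 7.32e-04) and -0.91 (adjusted p = 4.59e-05), and Cox8a stayed lower in WT at -0.76 (adjusted p = 0.00166) but not in KO at -0.43 (adjusted p = 0.081).

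Ndufa4, first assigned to complex I and now counted with complex IV, measured 5085, 5415 and 5206 CPM in WT Input and 2664, 3243 and 2477 CPM in WT IP, and 6124, 5569.9 and 4069 CPM in KO Input and 2905, 2313 and 2606 CPM in KO IP. The fractions were separate in both genotypes, at -0.91 ± 0.18 (SE, adjusted p = 9.19e-04) and -1.01 ± 0.18 (SE, adjusted p = 2.74e-04). Cox7c, a small membrane subunit, had 5858, 4747 and 5008 CPM in WT Input and 2752, 2911 and 2933 CPM in WT IP, at -0.86 ± 0.20 (SE, adjusted p = 0.00402). In KO its Input library 3, at 2949 CPM, fell within the range of the IP libraries, and the value was -0.74 ± 0.20 (SE, adjusted p = 0.0111). Cox5a, a matrix-facing subunit, was called in WT at -0.68 ± 0.19 (SE, adjusted p = 0.018) and stood at -0.30 ± 0.19 (SE, adjusted p = 0.315) in KO. Neither Ndufa4, Cox7c nor Cox5a passed in either genotype after the length trend was removed, with adjusted p between 0.0973 and 0.659. The KO call of Cox7c ended without KO IP library 2 or KO Input library 1 (adjusted p between 0.0784 and 0.12). Without WT IP library 1 or WT Input library 1 or 2, the WT call of Cox5a ended (adjusted p between 0.0628 and 0.132).

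The heart and muscle forms of complex IV subunits had IP over Input values nearer to 0 than their widespread forms. The shares of reads given below test that difference, at an adjusted p of 0.05, which is not under the threshold. Cox7a1, the heart and muscle form of subunit VIIa, measured 3903, 3334 and 3271 CPM in WT Input and 2651, 2770.2 and 2655 CPM in WT IP, and 4444, 3555 and 3051 CPM in KO Input and 2331, 1928 and 2128 CPM in KO IP. The IP libraries were below the Input libraries in both genotypes, and the log2 fold change was -0.38 ± 0.17 (SE, adjusted p = 0.131) in WT and -0.79 ± 0.17 (SE, adjusted p = 0.00166) in KO, the latter ending at -0.09 (adjusted p = 0.713) without the length trend. Cox8b, the heart and muscle form of subunit VIII, measured 3230.4, 2688 and 2922 CPM in WT Input and 1958, 2136 and 1896 CPM in WT IP, and 3545, 2658 and 2574 CPM in KO Input and 1789.8, 1334 and 1609 CPM in KO IP. It was lower in IP without overlap in both genotypes and gave -0.56 ± 0.17 (SE, adjusted p = 0.0244) and -0.89 ± 0.17 (SE, adjusted p = 5.87e-04), and -0.04 (adjusted p = 0.891) and -0.22 (adjusted p = 0.306) without the length trend. Cox8b lost its WT call without WT IP library 1 or 3 or WT Input library 1 or 3 (adjusted p between 0.0634 and 0.12). Cox6a2, the heart and muscle form of subunit VIa, gave -0.41 ± 0.18 (SE, adjusted p = 0.145) and -0.15 ± 0.18 (SE, adjusted p = 0.629), and was called higher in KO, at 0.47 (adjusted p = 0.0286), only without the length trend. The remaining complex IV genes, Cox4i1, Cox5b, Cox6b1, Cox6c and Cox7b, ran from -0.40 to -0.03 in WT and from -0.43 to -0.06 in KO, and none was called. Without the length trend Cox4i1, the largest nuclear-encoded subunit of complex IV, was called higher in both genotypes, at 0.48 (adjusted p = 0.0241) and 0.50 (adjusted p = 0.0178), and Cox6c in WT at 0.41 (adjusted p = 0.0493).

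The sequence upstream of these paralogs is shown because each pair encodes alternative forms of a single subunit whose shares of reads were compared. Each is the RefSeq window (GRCm38.p6) of 150 bases, from 120 before to 30 after the annotated start, and capitals mark a match to the ETS core CCGGAAGT on either strand.
Cox7a1 (chr7:30184051-30184200, plus strand): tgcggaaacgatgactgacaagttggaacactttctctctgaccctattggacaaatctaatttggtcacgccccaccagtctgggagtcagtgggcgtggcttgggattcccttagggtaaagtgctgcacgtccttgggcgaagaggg
Cox7a2 (chr9:79759824-79759973, minus strand): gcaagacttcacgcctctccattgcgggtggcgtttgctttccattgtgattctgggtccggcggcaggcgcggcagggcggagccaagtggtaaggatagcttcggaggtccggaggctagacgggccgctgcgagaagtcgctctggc
Cox8a (chr19:7217587-7217736, minus strand): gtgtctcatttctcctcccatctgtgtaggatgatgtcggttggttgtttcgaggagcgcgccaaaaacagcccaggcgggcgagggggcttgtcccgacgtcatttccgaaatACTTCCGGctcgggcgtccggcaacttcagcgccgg
Cox8b (chr7:140900417-140900566, minus strand): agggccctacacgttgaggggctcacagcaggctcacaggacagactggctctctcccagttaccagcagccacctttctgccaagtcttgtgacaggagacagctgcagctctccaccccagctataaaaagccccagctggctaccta
Only the Cox8a window shown holds the ETS core, on the reverse strand, beginning 6 bases before the start and running across it. Another match lies from 32 bases after the start, past the end of the window. None of the 4 holds the NRF1 core GCGCATGC or the YY1 core AAGATGGCG. The widespread forms are the richer in G and C, with 64% for Cox7a2 against 53.3% for Cox7a1 and 60% for Cox8a against 58% for Cox8b. A match describes letters, not binding.

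The share of a pair's reads within a library needs no scaling between libraries. Cox7a1 made up 65.2%, 64.0% and 58.3% of the Cox7a1 and Cox7a2 reads in WT Input and 74.4%, 76.7% and 75.9% in WT IP. In KO the shares were 60.2%, 61.4% and 64.2% in Input and 73.5%, 74.6% and 71.8% in IP. All 6 IP libraries were above all 6 Input libraries, by 12.3 percentage points on average. Brown fat also makes Cox7a1 and Cox8b, and Ucp1 was highest, at 151 CPM, in WT Input library 3, which had the lowest Cox7a1 share. WT Input library 1, next in Ucp1 at 52.3 CPM, had the highest Cox7a1 share of the Input libraries, 65.2%. The part of brown fat in the shares was not tested. An exact two-sided permutation test of labels within genotype of the Cox7a1 shares gave p = 0.005, the smallest value that its 400 relabellings allow, and an adjusted p of 0.05 over 10 share tests, which lies at the threshold and not under it. Cox8b made up 80.5%, 82.6% and 77.5% of the Cox8a and Cox8b reads in WT Input and 89.3%, 87.1% and 86.0% in WT IP. In KO it made up 83.9%, 79.5% and 85.6% in Input and 86.6%, 84.9% and 83.7% in IP. The fractions were separate in WT and overlapped in KO, with a mean difference of 4.66 points (exact permutation p = 0.025, adjusted p = 0.05). Cox6a2 held 90.3% to 95.1% of the Cox6a1 and Cox6a2 reads in every library, and its share was 1.41 points higher in IP (exact permutation p = 0.025, adjusted p = 0.05), with overlap in both genotypes. Exact 95% binomial intervals of single libraries, which cover counting error only, spanned for example 55.9% to 60.7% for Cox7a1 in WT Input library 3 and 74.9% to 78.5% in WT IP library 2. Between KO and WT the shares differed by -1.47 points for Cox7a1, 0.21 for Cox8b and 0.38 for Cox6a2, with exact permutation p of 0.27, 0.89 and 0.68 and adjusted p of 0.45, 0.89 and 0.756.

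**Figure D2:**
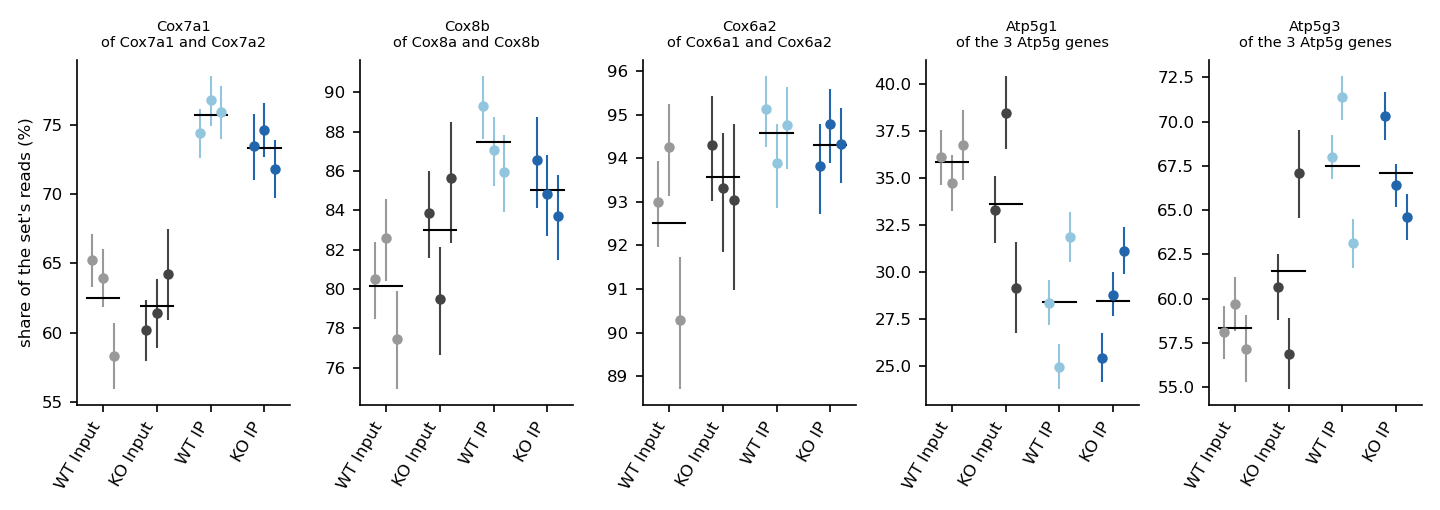
Share of a paralog set's reads (percent, vertical axis, scaled per panel) taken by the named gene in each of the 12 libraries, with exact 95% binomial intervals as vertical lines and group means as horizontal bars. The Cox7a1 share runs from 71.8% to 76.7% in the IP libraries and from 58.3% to 65.2% in the Input libraries, with KO and WT libraries overlapping in each fraction.

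ATP synthase genes went in both directions, with 6 lower and 1 higher in IP in WT and 5 lower and none higher in KO. Atp5a1 and Atp5b, the alpha and beta subunits that form the catalytic head, were not called in either direction. Atp5a1 measured 4285, 4434 and 4172 CPM in WT Input and 5835, 6311 and 5576 CPM in WT IP, and 4562, 4407 and 5159.6 CPM in KO Input and 5813, 5482 and 5914 CPM in KO IP. All IP libraries lay above the Input libraries of their genotype, yet the log2 fold change of 0.46 ± 0.16 (SE, adjusted p = 0.053) in WT and 0.29 ± 0.16 (SE, adjusted p = 0.238) in KO did not pass. It was called higher in WT in 8 of 18 alternatives, DESeq2 and limma-voom among them. Atp5b stood at 0.11 and -0.06, and Atp5c1, the gamma subunit of the rotor, at 0.01 and 0.18.

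The other subunits of the central stalk were lower in IP. Atp5e (ENSMUSG00000016252.7, chr2:174461072-174464105 on the minus strand of GRCm38), the epsilon subunit, measured 2832, 2293 and 2875 CPM in WT Input and 1190.1, 949 and 1159 CPM in WT IP. In KO it measured 3702, 2754 and 2705 CPM in Input and 985, 791 and 994 CPM in IP. No libraries of the fractions overlapped, and the log2 fold change was -1.28 ± 0.17 (SE, adjusted p = 7.63e-06) in WT and -1.73 ± 0.17 (SE, adjusted p = 1.47e-07) in KO, the largest fall in KO among the 42 genes. It stayed lower without the length trend, at -0.70 (adjusted p = 0.0013) and -1.03 (adjusted p = 2.49e-05). Atp5d, the delta subunit, gave -0.60 ± 0.17 (SE, adjusted p = 0.0159) and -0.64 ± 0.17 (SE, adjusted p = 0.00863), neither of which held without the length trend, at -0.35 (adjusted p = 0.097) and -0.39 (adjusted p = 0.0676). The WT call of Atp5d ended without WT IP library 1 or 3 or WT Input library 1 or 3 (adjusted p between 0.0555 and 0.108). Without KO IP library 2 or KO Input library 1, the KO call of Atp5d ended (adjusted p between 0.0547 and 0.0888). Atp5o (ENSMUSG00000022956.11, chr16:91925214-91931687 on the minus strand of GRCm38), the OSCP subunit that ties the head to the outer stalk, measured 979.6, 1014 and 709 CPM in WT Input and 224, 207 and 305 CPM in WT IP, the largest fall in WT at -1.88 ± 0.25 (SE, adjusted p = 6.79e-06). In KO its Input library 3, at 307 CPM, lay within the IP range of 224 to 341 CPM while the others were at 769 and 878 CPM, and the value was -1.27 ± 0.25 (SE, adjusted p = 9.80e-04). Both calls held under all 18 alternatives, with -1.40 (adjusted p = 1.30e-04) and -0.70 (adjusted p = 0.0453) without the length trend. The annotation gives the name Atp5o to another gene ID that overlaps it and had 0 counts in every library, so counts of this gene depend on how reads were assigned between them.

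Among the membrane subunits, Atp5k (subunit e) and Atp5l (subunit g), which hold ATP synthase dimers together, were called in opposite directions in WT. Atp5k measured 2675, 2459 and 2667 CPM in WT Input, 1744, 1949.6 and 1726 CPM in WT IP, 3557, 2927 and 2682 CPM in KO Input and 1678, 1111 and 1637 CPM in KO IP. It was lower in IP without overlap in both genotypes, at -0.53 ± 0.17 (SE, adjusted p = 0.0396) and -1.05 ± 0.17 (SE, adjusted p = 1.17e-04), and neither call held without the length trend, at 0.01 (adjusted p = 0.986) and -0.38 (adjusted p = 0.0676). Atp5k lost its WT call without WT IP library 1, 2 or 3 or WT Input library 1, 2 or 3 (adjusted p between 0.0674 and 0.148). Atp5l measured 1301, 1413 and 1511 CPM in WT Input and 2222, 2402 and 2058 CPM in WT IP. In KO it measured 2209, 1826 and 2733 CPM in Input and 2523, 1807 and 1945 CPM in IP. The WT Input libraries stood below all the other 9, the IP over Input value was 0.66 ± 0.17 (SE, adjusted p = 0.01) in WT and -0.11 ± 0.17 (SE, adjusted p = 0.73) in KO, with 1.25 (adjusted p = 3.12e-05) and 0.52 (adjusted p = 0.0526) without the length trend, and the WT call was lost without WT Input library 1 (adjusted p = 0.0662). The difference between genotypes in that ratio was -0.77 ± 0.24 (SE, unadjusted p = 0.00393, adjusted p = 0.425) and did not pass. Atp5j2 (subunit f) was called in KO alone, at -0.83 ± 0.20 (SE, adjusted p = 0.005) against -0.46 ± 0.20 (SE, adjusted p = 0.12) in WT, with overlapping libraries in KO, and at -0.36 (adjusted p = 0.13) without the length trend. The KO call of Atp5j2 ended without KO Input library 1 (adjusted p = 0.0653).

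The window upstream of Atp5k is shown with that of Uqcr11, since both genes were lower in IP in both genotypes and both windows hold the NRF1 core GCGCATGC. Capitals mark the NRF1 core on either strand and, in Uqcr11, also the ETS core CCGGAAGT, and the windows have the same source and extent as those of the complex IV genes.
Uqcr11 (chr10:80406792-80406941, minus strand): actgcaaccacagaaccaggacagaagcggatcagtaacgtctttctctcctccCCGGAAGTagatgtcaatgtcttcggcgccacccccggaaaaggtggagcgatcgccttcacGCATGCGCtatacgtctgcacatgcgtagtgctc
Atp5k (chr5:108434370-108434519, minus strand): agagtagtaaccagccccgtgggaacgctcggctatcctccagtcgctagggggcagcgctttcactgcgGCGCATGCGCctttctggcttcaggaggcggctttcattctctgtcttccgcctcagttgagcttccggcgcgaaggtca
In Atp5k the capitals cover a match on each strand, 50 and 48 bases before the start and overlapping. In Uqcr11 the NRF1 match begins 4 bases before the start and runs across it, and the ETS match begins 66 before. Over the 33 of 42 members with a RefSeq window of 300 bases, 7 held the NRF1 core (21.2%, against 3.05% of 27025 genes), 4 the ETS core (12.1%, against 4.31%) and 2 the YY1 core AAGATGGCG (6.06%, against 1.64%), each searched on both strands. NRF1 and the ETS factor GABP are known regulators of respiratory chain genes. The windows with a match belonged to genes lower in IP in at least 1 genotype (Sdhb, Uqcr11, Cycs, Cox8a, Atp5g2, Atp5k and Atp5j2), to Atp5l, which was higher in WT, and to genes that were not called (Uqcrc1, Uqcrh, Atp5h and Atp5j).

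The c-ring of ATP synthase is built from a single mature protein that 3 genes encode, differing in their import sequences. Atp5g1 measured 3789, 3440.1 and 3275 CPM in WT Input and 2340.3, 2198 and 2701 CPM in WT IP, at -0.54 ± 0.18 (SE, adjusted p = 0.0407) in WT and -0.31 ± 0.18 (SE, adjusted p = 0.25) in KO. Atp5g3, with the most reads of the set, measured 6097, 5916 and 5095 CPM in WT Input and 5609, 6284 and 5351 CPM in WT IP, at 0.01 ± 0.17 (SE, adjusted p = 0.976) and 0.09 ± 0.17 (SE, adjusted p = 0.786). The least abundant in reads, Atp5g2, measured 606, 552 and 541 CPM in WT Input and 296, 324 and 424 CPM in WT IP, was lower in WT IP without overlap at -0.71 ± 0.19 (SE, adjusted p = 0.0146) and not called in KO at -0.23 ± 0.20 (SE, adjusted p = 0.485). Without WT IP library 1, 2 or 3 or WT Input library 1, 2 or 3, the WT call of Atp5g1 ended (adjusted p between 0.0537 and 0.159). Atp5g2 lost its WT call without WT IP library 1 or 2 or WT Input library 1 (adjusted p between 0.0708 and 0.111). Without the length trend Atp5g2 was not called, at -0.18 (adjusted p = 0.506) in WT and 0.38 (adjusted p = 0.142) in KO. Atp5g1 was then lower in both genotypes, at -0.70 (adjusted p = 0.00565) and -0.49 (adjusted p = 0.049), values that rest on its 4715-base transcript, and Atp5g3 higher in both, at 0.54 (adjusted p = 0.0147) and 0.67 (adjusted p = 0.00312). The share of Atp5g3 in the set's reads was 58.1%, 59.7% and 57.2% in WT Input and 68.0%, 71.4% and 63.1% in WT IP, and over both genotypes it was 7.37 points higher in IP (exact permutation p = 0.015, adjusted p = 0.05). For Atp5g1 the difference was -6.32 points (exact permutation p = 0.01, adjusted p = 0.05). The fractions were separate in WT and overlapped in KO for both shares. These 3 genes share coding sequence, and how reads that fit several of them were counted is stated nowhere in the labels, so the split is uncertain.

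The other ATP synthase genes did not pass in either genotype. Atp5h, the d subunit of the outer stalk, stood at -0.23 in WT and 0.05 in KO, and Atp5j, its F6 neighbour, at -0.20 and -0.13. Atpif1, which encodes the inhibitor of ATP hydrolysis, stood at -0.25 and -0.14. All 3 were called higher in KO once the length trend was removed, at 0.67 (adjusted p = 0.00239), 0.43 (adjusted p = 0.0396) and 0.57 (adjusted p = 0.0166).

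**Figure D3:**
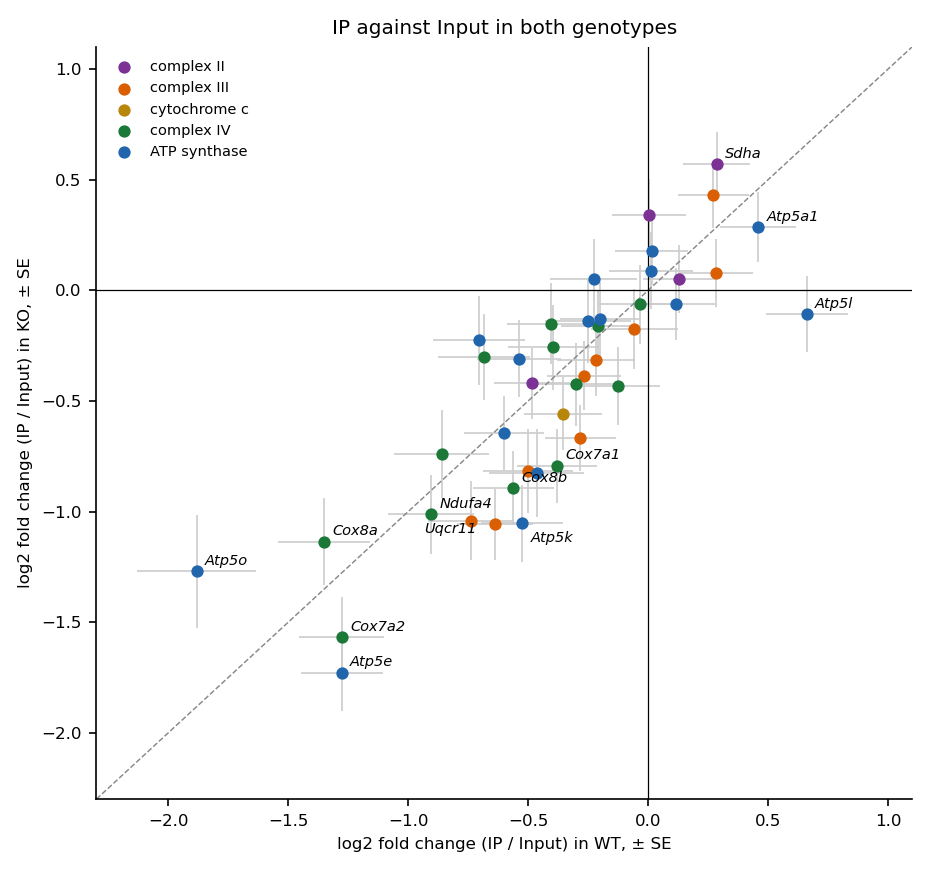
Log2 fold change of IP over Input in WT (horizontal) and KO (vertical) for the 42 genes, with SE as grey lines, colours by complex and a dashed line of equal values. Atp5o, Cox8a, Cox7a2 and Atp5e lie at the lower left in both genotypes, and Atp5l sits to the right of the line.

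The WT and KO comparisons of IP with Input rest on different libraries. Across the 42 genes their log2 fold changes had Pearson r = 0.839 and Spearman rho = 0.861, and 39 of 42 had the same sign. Genes are not independent replicates, and both share the difference in purification. The interaction tests whether the ratio differs between genotypes. There 0 of 42 members passed with edgeR, beside 0.0303% of all genes called higher and 0.0606% lower. By the same test 2 members, Atp5l and Atp5k, had an unadjusted p under 0.05, beside 463 of the 6596 genes tested. The value for Atp5k was -0.53 ± 0.24 (SE, adjusted p = 0.703) and that for Atp5e, next in order of p, -0.45 ± 0.24 (SE, adjusted p = 0.755).

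Shorter transcripts had lower IP over Input values among the members and among all genes, given here as a description. Across the 42 genes the log2 fold change had Pearson r = 0.382 with log2 length in WT and 0.516 in KO, and across the 6591 tested genes with a length 0.234 and 0.308. The 11 members under 600 bases had a median of -0.53 in WT and -0.89 in KO, beside -0.51 and -0.79 for the 146 tested genes of that length. Those between 600 and 1000 bases, 15 members, had -0.41 and -0.26, beside -0.48 and -0.54 for 386 genes. The 11 members of 1000 to 2000 bases had -0.27 and -0.39 beside -0.20 and -0.21 for 1340 genes, and the 5 longer members, too few for a median to carry weight, 0.0037 and 0.29 beside 0.11 and 0.12 for 4719 genes. The genes called lower after the trend was removed were Cox7a2, Atp5e, Atp5g1 and Atp5o in both genotypes, Cox8a in WT, and Uqcrq, Cyc1 and Cycs in KO. Of these, Atp5g1 and Cycs carry the doubt on transcript length given above.

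**Figure D4:**
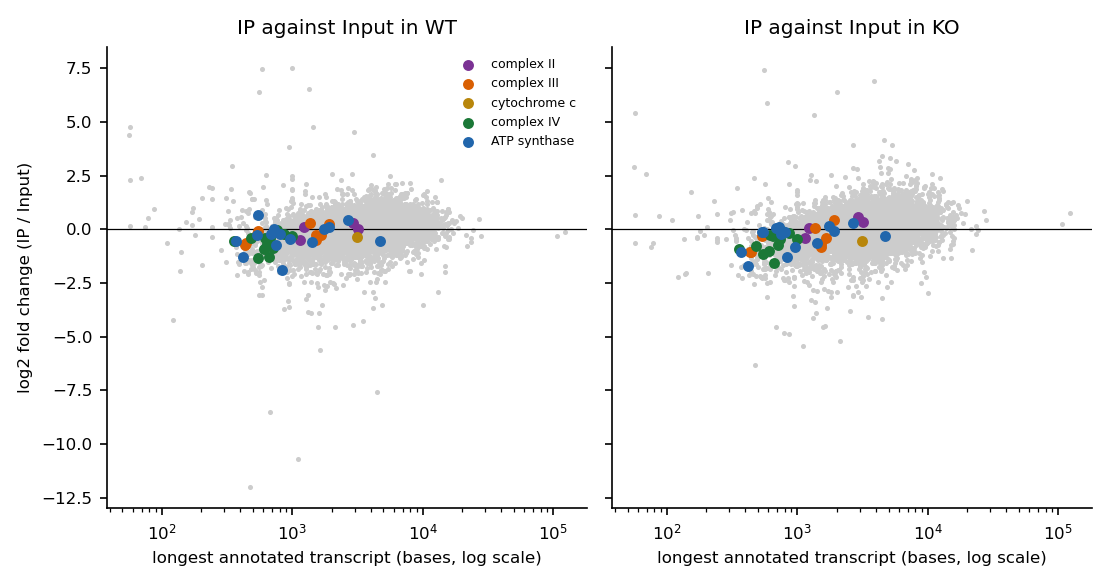
Log2 fold change of IP over Input (vertical) against the length of the longest annotated transcript in bases (horizontal, log scale), for all tested genes in grey and the 42 genes in colours by complex, in WT (left) and KO (right). Most members lie at the short end, where the grey cloud also lies below 0, with medians of -0.51 in WT and -0.79 in KO under 600 bases.

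Between KO and WT hearts, none of the 42 genes was called with edgeR. In Input 0 of 42 passed and 2 had an unadjusted p under 0.05 with edgeR, beside 469 of the 6596 genes tested. The median log2 fold change of KO over WT was -0.01, beside -0.0064 for all genes, of which 0.152% were called higher and 0.0303% lower. In IP 0 of 42 passed and 0 had an unadjusted p under 0.05 with edgeR, beside 343 of the 6596 genes tested. The IP median was -0.07 beside 0.00012 for all genes, of which 0.0303% were called higher and 0.0606% lower. Leaving out 1 library moved the Input median between -0.13 and 0.08, across 0, and the IP median between -0.13 and -0.0051. With DESeq2 and limma-voom the counts in IP were 0 as well, and in Input DESeq2 called 1, Atp5l. The smallest p in Input belonged to Atp5l, at 0.68 ± 0.17 (SE, adjusted p = 0.156), followed by Sdhc (unadjusted p = 0.0124) and Sdha (unadjusted p = 0.0645). DESeq2 gave Atp5l an adjusted p of 0.0254, and the other 17 alternatives did not call it.

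Without a call, some libraries did not overlap. In Input KO was above WT for Uqcrfs1, Atp5k and Atp5l and below for Sdha and Sdhc, that is 3 and 2 of 42, and 6.17% and 6.2% of all genes tested did the same. In IP no member was above and 7 were below, Uqcrb, Cyc1, Cycs, Cox7a1, Cox7b, Cox8b and Atp5k, beside 5.4% above and 5.44% below among all genes. For Cox8b the WT IP libraries measured 1958, 2136 and 1896 CPM and the KO IP libraries 1789.8, 1334 and 1609 CPM, and the log2 fold change was -0.34 ± 0.17 (SE, adjusted p = 0.943). Cox7a1 gave -0.34 ± 0.17 (SE, adjusted p = 0.943) in the same comparison and Atp5k -0.29 ± 0.17 (SE, adjusted p = 0.965). These are the 3 members with the smallest p in IP, and their longest transcripts have 360, 485 and 371 bases. Length also ran with the genotype difference in IP, with Pearson r = 0.321 across the members and 0.166 across all genes, and without the length trend the values were -0.17 (adjusted p = 0.967), -0.21 (adjusted p = 0.937) and -0.13 (adjusted p = 0.985).

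**Figure D5:**
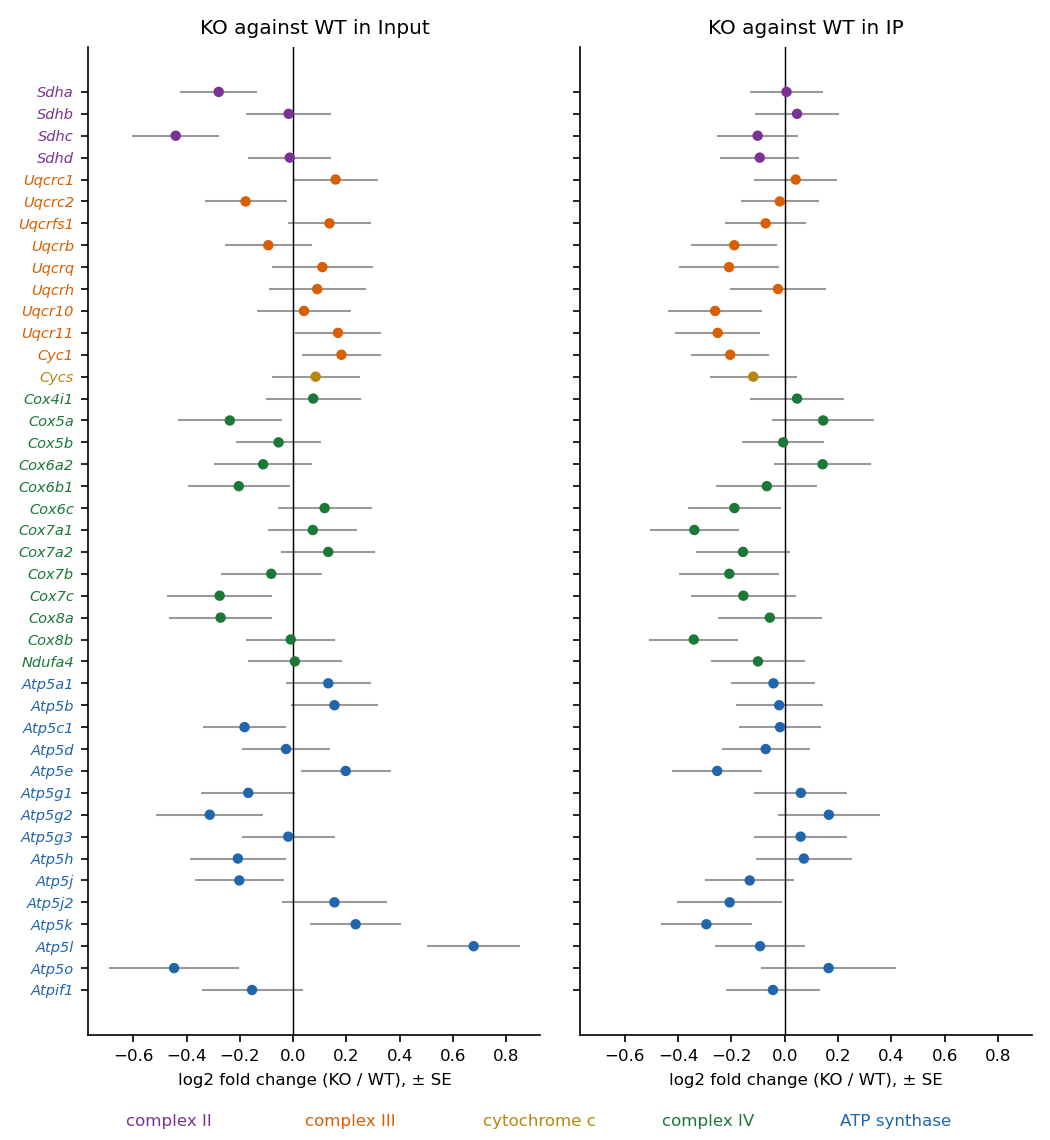
Log2 fold change of KO over WT with SE for each of the 42 genes, in Input (left) and IP (right), with genes coloured by complex. Values scatter around 0 in Input, apart from Atp5l at 0.68, and 31 of 42 lie below 0 in IP, none past the threshold in either.

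Related genes were counted from lists written for this work. Of 11 further subunits of complexes II to V, 7 were tested, and of these 3 were lower in IP in each genotype and none was higher, and with the length trend removed 2 were lower and 1 higher in each. Cox7a2l, which helps complexes III and IV associate, gave -1.19 ± 0.17 (SE, adjusted p = 2.40e-05) in WT and -1.57 ± 0.18 (SE, adjusted p = 7.22e-07) in KO. Usmg5, a small ATP synthase subunit, gave -0.93 ± 0.20 (SE, adjusted p = 0.00182) and -1.29 ± 0.20 (SE, adjusted p = 4.99e-05). Cox6a1, the widespread form of subunit VIa, was called in WT at -0.90 ± 0.21 (SE, adjusted p = 0.00457) and Atp5mpl, another small ATP synthase subunit, in KO at -0.92 ± 0.17 (SE, adjusted p = 4.37e-04).

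Of 42 assembly factors for these complexes 36 were tested, of which 5 were lower and 1 higher in IP in WT, and 7 lower and none higher in KO, beside the shares of 8.67% and 5.37% of all genes in WT and 9.78% and 6.64% in KO given above. With the length trend removed, 1 was lower and 1 higher in WT and 4 lower and 1 higher in KO. Pet100, needed for complex IV assembly, gave -1.16 ± 0.32 (SE, adjusted p = 0.0143) and -2.47 ± 0.34 (SE, adjusted p = 1.02e-05), Cox14, another complex IV factor, -1.19 ± 0.16 (SE, adjusted p = 1.26e-05) in KO, and Cox16 -0.81 ± 0.22 (SE, adjusted p = 0.0161) in WT. The gene that was higher in WT was Lrpprc, which stabilises mitochondrial mRNA, at 0.76 ± 0.25 (SE, adjusted p = 0.0394). Uqcc2, which acts on complex III, gave -0.63 ± 0.17 (SE, adjusted p = 0.0146) and -0.84 ± 0.18 (SE, adjusted p = 0.00184). Of 36 complex I subunit genes, 13 were lower in WT and 17 in KO, none was higher, and the medians were -0.26 and -0.43. With the length trend removed, 4 were lower and 6 higher in WT and 6 lower and 3 higher in KO, with medians of 0.05 and 0.06. The lowest p in this list belonged in WT to Ndufb4 at -1.38 ± 0.19 (SE, adjusted p = 9.33e-06), Ndufb2 at -1.18 ± 0.20 (SE, adjusted p = 1.64e-04) and Ndufa2 at -0.87 ± 0.18 (SE, adjusted p = 0.00186). In KO the leading genes were Ndufb2 at -1.90 ± 0.20 (SE, adjusted p = 3.88e-07), Ndufb4 at -1.33 ± 0.19 (SE, adjusted p = 2.14e-05) and Ndufc1 at -1.14 ± 0.17 (SE, adjusted p = 2.66e-05). No gene of the 3 lists passed between genotypes in Input or IP or in the interaction. The mitochondrially encoded subunits of complexes III to V, 6 genes, were listed at 0 counts in every library, as were all 37 genes of the mitochondrial chromosome, and were not analysed here.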

How the data were processed

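The authors deposited 1 table per library with raw counts per Ensembl gene ID, whole numbers with no normalization. Per the submitters' processing notes, minimap2 2.14, DESeq2 1.34.0 and GRCm38 were used, with no role or order given, and how reads were counted was not given in the sources used here. Gene names, positions and transcript lengths came from GENCODE M21 (GRCm38), in which 55141 of 55401 IDs were found, and promoter sequences from RefSeq (GRCm38.p6).

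The 42 members and all lists were chosen with earlier results of these data known. Genes passed edgeR's filterByExpr (minimum count 10, minimum total 15), which left 6596. Counts of all 12 libraries were fitted with edgeR 4.0.16 (R 4.3.3) by quasi-likelihood with TMM scaling and 1 mean per group. There were 5 contrasts, namely KO against WT in each fraction, IP against Input in each genotype and their interaction, with Benjamini-Hochberg adjustment over all genes tested within each contrast and a threshold of 0.05. The common dispersion was 0.0333, a biological coefficient of variation of 18.2%. The SE is the log2 fold change divided by the root of its F statistic. Members named in full were, per contrast, up to 8 called in each direction with the largest fold change among those whose libraries did not overlap, or the 3 with the smallest p where fewer than 3 were called, with the genes of the paralog shares. For each related list up to 3 called genes per contrast were named, and other members, named after their values were seen, complete each complex. Shares of reads used raw counts and exact permutation tests (Python 3.11.15, scipy 1.17.1).

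Library totals were 169359 to 710868 counts, and counting intervals and floors cover counting error only. Replicates with the same number did not deviate together (correlation -0.115 to 0.0423 over 18 pairs), so no block was used. The 17 to 23 alternatives per contrast were other size factors, library totals, other count filters, DESeq2 1.42.0, limma-voom (limma 3.58.1), the compared libraries alone, a replicate block, thinning to the smallest library, removal of globin genes, a loess trend on the log2 length of the longest transcript (span 0.5), fitted in each library over genes at or above the median level and entered as an offset, and leaving out each library. Leaving out WT Input library 3 and KO Input library 3 together was added after seeing the data. The code was tested on simulated data.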

Additional observations from a re-analysis of the deposited data

How the results depend on the processing

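Between genotypes, no member was called under any alternative in IP or in the interaction, and in Input 1 was called, by DESeq2. For IP against Input in WT, 1 member was higher and 15 lower. The higher count became 2 with DESeq2 size factors, library totals, the DESeq2 test, limma-voom, the compared libraries alone or globin genes left out, 3 after thinning and 8 with the length trend removed. The lower count became 9 after thinning, 5 with the length trend removed, 17 with the stricter filter or limma-voom and 20 with the compared libraries alone. It also fell with library totals or no count filter, where Sdhb, Cox8b, Atp5g1 and Atp5k were lost, and with the replicate block, where Sdhb, Atp5g1 and Atp5k were lost. Leaving out 1 library gave 0 to 1 higher and 8 to 11 lower. For IP against Input in KO, 1 was higher and 16 lower. The higher count became 2 with DESeq2 size factors, library totals, no count filter, the stricter filter, the DESeq2 test, limma-voom or thinning, and 9 with the length trend removed, where the lower count became 7. Leaving out 1 library gave 1 to 2 higher and 12 to 21 lower, and 0 in each direction for both genotype contrasts and the interaction. Without WT Input library 3 and KO Input library 3, 15 members were called in WT (14 lower) and 21 in KO. Cox6a2 in KO turned from -0.15 to 0.47 with the length trend removed and was called higher there. Cox4i1 and Uqcrh in both genotypes, Cox6c in WT and Atp5j and Atpif1 in KO likewise turned from below to above 0 and were called higher.

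For the shares of reads (IP minus Input), leaving out 1 library gave 11.2 to 13.0 points for Cox7a1, 3.79 to 5.32 for Cox8b, 0.85 to 1.85 for Cox6a2, -7.45 to -5.11 for Atp5g1 and 6.21 to 8.75 for Atp5g3. Without KO Input library 3 Cox7a1 (12.9), Cox8b (5.32), Atp5g1 (-7.45) and Atp5g3 (8.75) passed, with adjusted p of 0.0167 to 0.025 by the exact permutation test. For KO minus WT the ranges were -2.52 to -0.79 for Cox7a1, -0.47 to 1.09 for Cox8b, -0.17 to 0.82 for Cox6a2, -2.29 to 0.05 for Atp5g1 and 0.04 to 2.58 for Atp5g3.

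With the replicate block, 13 members were called in WT and 17 in KO, and 13 of the 16 WT calls and all 17 KO calls were kept. Same-numbered libraries did not deviate together (each correlated most with its own number in 3 of 36 cases), and the labels do not say whether numbers mark shared hearts. Under the block the shares gave an adjusted p of 0.156 to 0.25 for IP minus Input and 0.625 to 0.875 for KO minus WT (exact permutation), with 64 relabellings. The cause of each change, the smaller number of libraries or relabellings included, was not tested. With 3 libraries a group and the smallest at 169359 counts, differences between genotypes may have gone undetected, and not only small ones. In the simulated data, 32% of genes given a log2 change of 1 were called for KO against WT in Input and 42% in IP. Those genes were drawn from tested genes of all levels, not from the members.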
